A study of Mus musculus with 6 samples.

Results

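Interferon-stimulated genes are genes that cells switch on when interferon, a secreted signal of viral infection, reaches its receptors. The values here cover 45 such genes, chosen by name from well-known members of the response, with earlier results of these data known. All 45 had a row among the 17144 gene symbols of the count tables. RNA-seq gave 6 libraries, 3 titled C and 3 titled D, from cells under the name SaOS2, which is a long-established human line derived from an osteosarcoma. The series concerns the compound DDTC(I) on these cells, but no label spells out either letter, so differences are given as D minus C. The labels used here give no genotype, dose, time or culture for either group and name no allele or agent that the groups share. The replicate numbers may stand for technical repeats, in which case a p-value reflects only the spread between these libraries.

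In the textbook account, interferon binds paired receptor chains, the kinases JAK1 and TYK2 phosphorylate STAT2, and STAT2 joins IRF9 in a complex called ISGF3 that binds the promoters of the responding genes. IRF1, another factor, drives an overlapping set of genes, while IRF2 can bind the same sites and is known mainly as its antagonist. Many of the proteins encoded bind or degrade viral RNA, block viral entry or release, or modify other proteins, and several of the genes keep a basal level of expression without added interferon.

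Library totals lay between 18446443 and 20602771 counts, and the floor of 3 counts corresponded to between 0.139 and 0.170 CPM (a count's share of its library, with library sizes adjusted by TMM factors so that the bulk of genes match). Of the 9 osteoblast markers examined, ALPL had 8 to 15 counts in any library, IBSP 0 to 2, SP7 0 to 1 and BGLAP 0 to 2, so these markers do not show the osteoblast-like identity that the label implies, whereas COL1A2 had 3337 to 4033 counts in C. Of 11 immune cell markers, 9 had a row. Their summed level was 561.7 to 584.1 CPM in C and 542.5 to 590.0 CPM in D, nearly all of it CD68 and NCAM1. Without CD68 and NCAM1 the other markers summed to 1.04 to 2.92 CPM in C and 1.67 to 2.38 CPM in D. The pan-leukocyte gene PTPRC had 8, 8 and 2 counts in C and 2, 3 and 2 in D, and the B cell gene MS4A1 was at 0 in 5 of the 6 libraries. Of this list only ITGAM, an integrin of myeloid cells, passed the test described next, with 9, 2 and 6 counts in C and 14, 15 and 11 in D. Only the D libraries of ITGAM reached the counts needed for that test, so only a rise could be called. CD14, a monocyte marker too low to be tested, had 3, 1 and 2 counts in C and 11, 5 and 15 in D. The part of immune cells in the results was not tested.

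Most of the 45 interferon-stimulated genes chosen here were higher in D. Among a wider list of 49 others, given further on, 30.2% of those tested were called higher and 23.3% lower. Of the 45 members, 43 had enough counts to be tested, and 26 rose and 4 fell, where rose and fell mean a Benjamini-Hochberg adjusted p under 0.05 in the edgeR quasi-likelihood test over all 12682 tested genes. Over all tested genes the same rule called 26.8% higher and 27.7% lower, 54.4% in all, against 60.5% and 9.3% of the tested members. Because the members were chosen with earlier results of these data known, this contrast cannot be read as an independent test. MX2 and XAF1, counted among the rises, had enough counts to be tested only through their D libraries. Calls of at least a 2-fold change numbered 13 rises and 2 falls among the members, where 8.37% and 10.1% of all tested genes made such calls. The median log2 fold change of the tested members was 0.62, beside −0.02 for all tested genes. All 3 D libraries lay above all 3 C libraries for 30 of the 43 tested members and below them for 4, against 30.6% and 32.1% of all tested genes. Separate groups were thus common over all genes, and where they are named below they only describe the gene. In bulk RNA, a change in the number of cells that express a gene cannot be told apart from a change in RNA per cell. In what follows, values in parentheses after the CPM of a gene are its log2 fold change ± standard error and the adjusted p of that test.

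The count of rises was between 22 and 29 when each library was left out in turn. The count of falls was less steady: it was 2 when C replicate 1 was set aside and 7 when D replicate 3 was. Scaling by library size only, in place of TMM factors, gave 22 members higher and 6 lower, and over all genes 36.8% of calls were then higher, against 49.2% with TMM factors. The authors' FPKM values (counts divided by gene length and by the library's total) were tested with limma on log2(FPKM + 1), which changes the scaling, the model and the filter together. That fit gave 16 members higher and 7 lower of 34 tested, with 36.2% of all calls higher. Without its filter on low values it gave 19 higher and 5 lower of 45, with 37.7% of all calls higher.

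**Figure D1:**
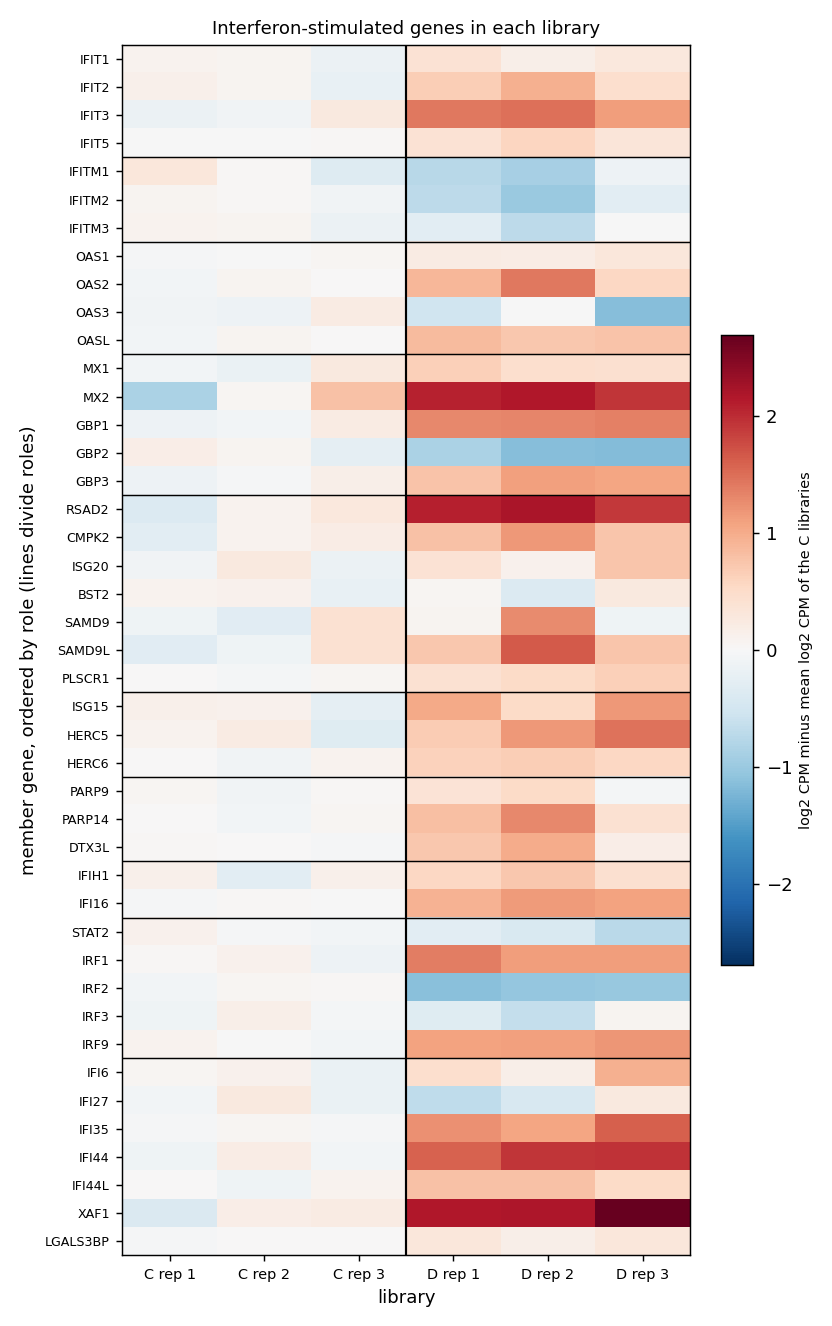
Colour gives log2 CPM of each tested member in each library minus the mean of the C libraries, with members in rows by role and libraries in columns; IRF7 and EPSTI1, too low to be tested, are not drawn. MX2, RSAD2, IFI44 and XAF1 are the strongest rises in the D libraries, while IFITM2, GBP2, STAT2 and IRF2 are lower there. MX2 and XAF1 had enough counts to be tested only through their D libraries.

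Upstream of these genes, calls went both ways, as they did over all tested genes, of which 26.8% were higher and 27.7% lower. Of 21 interferon genes, 6 had a row and 0 reached the counts needed for a test. IFNB1, interferon beta, had 0, 0 and 0 counts in C and 2, 6 and 4 in D, and IFNL1, interferon lambda, had 0, 1 and 1 counts in C and 6, 2 and 2 in D. IFNE had 3, 2 and 4 counts in C and 3, 3 and 5 in D, IFNG had 0, 2 and 0 counts in C and 0, 1 and 2 in D, and IFNA5 and IFNL2 had at most 1 count in any library. For IFNB1 and IFNL1 the D libraries lay above the C libraries, at levels where a few counts decide the difference.

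Of the 9 receptor and kinase genes, 8 were tested, and 2 rose and 4 fell. These were 25% and 50%, beside 26.8% and 27.7% of all tested genes. IFNAR1 and IFNAR2 pair in the receptor of interferon alpha and beta. IFNAR1 rose from 17.7, 18.7 and 19.1 CPM in C to 25.8, 32.8 and 22.1 CPM in D (0.54 ± 0.15, adjusted p = 0.017), while IFNAR2 fell from 18.6, 18.7 and 18.1 CPM in C to 10.1, 10.5 and 12.4 CPM in D (−0.75 ± 0.12, adjusted p = 0.001). For the gamma receptor, IFNGR1 rose (0.43 ± 0.13, adjusted p = 0.02) and IFNGR2 fell (−0.33 ± 0.11, adjusted p = 0.03). IL10RB, a chain of the lambda receptor, fell (−0.33 ± 0.10, adjusted p = 0.024), and its partner IFNLR1 had 1, 0 and 0 counts in C and 6, 5 and 3 in D. The kinase TYK2 fell (−0.45 ± 0.12, adjusted p = 0.011), and JAK1 (−0.07 ± 0.14, adjusted p = 0.69) and JAK2 (−0.47 ± 0.21, adjusted p = 0.085) did not pass. JAK2 passed as lower without D replicate 2 (−0.70). The call of IFNAR1 was lost without C replicate 1 (0.51) or C replicate 2 (0.55), and that of IFNGR1 without C replicate 1 (0.44) or C replicate 3 (0.36). IFNGR2 was not called without C replicate 1 (−0.29), C replicate 2 (−0.32), D replicate 1 (−0.32) or D replicate 2 (−0.28), and IL10RB without C replicate 1 (−0.31), C replicate 2 (−0.35), C replicate 3 (−0.34) or D replicate 1 (−0.34). IFNAR2 and TYK2 kept their calls in each of these fits.

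Of 12 genes that sense nucleic acids or relay the signal to interferon genes, 11 were tested, and 6 rose and 2 fell. These were 54.5% and 18.2%, beside 26.8% and 27.7% of all tested genes. CGAS, the DNA sensor, rose from 4.87, 4.99 and 5.12 CPM in C to 10.7, 11 and 12.5 CPM in D (1.19 ± 0.13, adjusted p = 0.00013). STING1, the adaptor that CGAS acts through, fell from 128, 129 and 123 CPM in C to 83.7, 80.8 and 76.7 CPM in D (−0.66 ± 0.09, adjusted p = 0.00052). The adaptor of the RNA sensors, MAVS, fell from 107, 98.1 and 115 CPM in C to 66.4, 73.8 and 45.5 CPM in D (−0.79 ± 0.17, adjusted p = 0.005). The RNA sensor RIGI, listed under its older symbol DDX58, rose (0.43 ± 0.12, adjusted p = 0.015). The kinases TBK1 (0.59 ± 0.12, adjusted p = 0.0031) and IKBKE (0.68 ± 0.13, adjusted p = 0.0026), the adaptor TRAF3 (0.45 ± 0.13, adjusted p = 0.015) and the DNA sensor AIM2 (0.85 ± 0.26, adjusted p = 0.024) also rose. DHX58 (−0.34), TLR3 (0.45) and TICAM1 (−0.21) did not pass, and ZBP1 had 0 counts in C and 3, 1 and 0 in D. TLR3 passed as higher without D replicate 3 (0.67). DDX58 lost its call without C replicate 1 (0.39) or C replicate 3 (0.43), and TRAF3 without C replicate 1 (0.42), C replicate 2 (0.40) or D replicate 1 (0.42). AIM2, with 12 to 22 counts, lay between 0.76 and 1.02 with 1 library set aside and was called in those fits only without D replicate 2.

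Among the factors that drive the response, IRF1 and IRF9 rose while IRF2 and STAT2 fell. IRF1, the activator, stood at 20.2, 21.2 and 17.8 CPM in C and 51.6, 42.7 and 42.7 CPM in D, a log2 fold change of 1.21 ± 0.13 (adjusted p = 0.00013). IRF2, its antagonist, stood at 31.5, 34.3 and 33.8 CPM in C and 15.2, 15.9 and 16.2 CPM in D, a log2 fold change of −1.07 ± 0.11 (adjusted p = 9.5e-05). In both genes the groups did not overlap, and the shifts were opposite and of similar size. Per gene length, the ratio of IRF1 to IRF2 in FPKM was 1.58, 1.51 and 1.29 in the C libraries and 8.36, 6.59 and 6.46 in the D libraries. By this measure IRF1 went from 1.46 ± 0.149 to 7.14 ± 1.06 times the level of IRF2 (SD, n = 3 per group). The size of the ratio rests on the implied lengths, 3570 bp for IRF1 and 8770 bp for IRF2. In CPM, IRF2 was above IRF1 in every C library.

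IRF9, the DNA-binding part of ISGF3, stood at 9.94, 9.2 and 8.77 CPM in C and 19.7, 20.1 and 21.5 CPM in D, and its log2 fold change was 1.14 ± 0.11 (adjusted p = 9.4e-05). STAT2, its partner, went the other way, with 62.7, 56.3 and 55.1 CPM in C and 47.4, 43.3 and 34.7 CPM in D and a log2 fold change of −0.47 ± 0.14 (adjusted p = 0.017). The D libraries of STAT2 were all below the C libraries, but STAT2 was no longer called with C replicate 1 set aside (−0.42, adjusted p = 0.073). In FPKM the ratio of IRF9 to STAT2 was 0.424, 0.436 and 0.425 in C and 1.11, 1.24 and 1.65 in D. By that measure STAT2 was the higher in every C library and IRF9 in every D library. This order rests on the implied lengths, 1780 bp for IRF9 and 4752 bp for STAT2. In CPM, STAT2 was the higher in every library.

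IRF3 and IRF7 induce the interferon genes themselves. IRF3 had 53.5, 64.3 and 55.7 CPM in C and 46.2, 37.1 and 60.4 CPM in D, with D replicate 3 inside the range of C (−0.27 ± 0.18, adjusted p = 0.22). Without D replicate 3 IRF3 fell by 0.46 on the log2 scale (adjusted p = 0.0059). IRF7, usually one of the more inducible members, had 0, 1 and 0 counts in C and 0, 1 and 0 in D and was not tested.

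**Figure D2:**
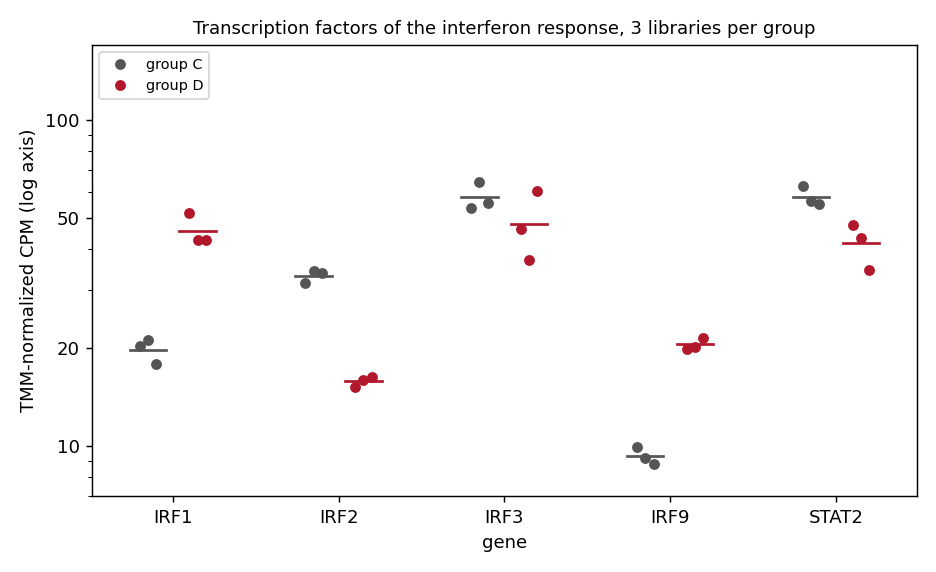
Points are TMM-normalized CPM on a log axis in each of the 3 C and 3 D libraries for the factors named on the horizontal axis, and short bars are group means. The C and D points separate for IRF1, IRF2, IRF9 and STAT2 and overlap for IRF3.

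Of 7 negative regulators, 3 rose and 2 fell, or 42.9% and 28.6%, beside 26.8% and 27.7% of all tested genes. PTPN2, a phosphatase of JAK kinases, rose from 42.2, 43.3 and 38.8 CPM in C to 65.3, 66.7 and 78.7 CPM in D (0.76 ± 0.11, adjusted p = 0.00071), as did PIAS4 (0.38 ± 0.12, adjusted p = 0.024) and SOCS3 (0.28 ± 0.10, adjusted p = 0.035). PIAS1, a SUMO ligase of the same family as PIAS4, fell from 47.5, 47.6 and 44.6 CPM in C to 25.2, 28.7 and 21.7 CPM in D (−0.89 ± 0.13, adjusted p = 0.00057), as did USP18, whose values stand with ISG15. SOCS1 (−0.23 ± 0.26, adjusted p = 0.48) and PTPN11 (−0.18 ± 0.18, adjusted p = 0.43) did not pass, and PTPN11 passed as lower without D replicate 2 (−0.37). PIAS4 and SOCS3 were not called without any 1 of the C libraries or without D replicate 1, where PIAS4 was between 0.30 and 0.41 and SOCS3 between 0.26 and 0.31.

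IFIT proteins bind viral RNA through tetratricopeptide repeats, and 3 of the 4 genes rose. Beside this family and those below, 26.8% of all tested genes were higher and 27.7% lower. Families of so few genes were not tested against these shares. IFIT3 moved most, from 7.28, 7.58 and 9.81 CPM in C to 22.1, 22.9 and 17.9 CPM in D (1.35 ± 0.16, adjusted p = 0.00021). IFIT2 stood at 11.3, 10.8 and 8.96 CPM in C and 16.3, 20.1 and 14.2 CPM in D (0.71 ± 0.16, adjusted p = 0.0061). Both had every D library above every C library, with D replicate 3 the lowest of the D libraries. IFIT5 stood at 9.63, 9.57 and 9.86 CPM in C and 12.7, 14.5 and 12.2 CPM in D (0.44 ± 0.12, adjusted p = 0.014), and it missed the threshold with C replicate 1 (0.43) or C replicate 2 set aside (0.42). IFIT1, a widely used marker of the response, had 14.2, 13.9 and 11.8 CPM in C and 17.4, 14.7 and 16.2 CPM in D and did not pass (0.28 ± 0.13, adjusted p = 0.096), although its groups did not overlap and it passed without D replicate 2 (0.37).

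The IFITM genes, which encode membrane proteins that hinder viral fusion, all had negative log2 fold changes, and 1 of the 3 fell. IFITM2, the one called, had 184, 179 and 163 CPM in C and 108, 87.3 and 144 CPM in D (−0.64 ± 0.17, adjusted p = 0.013). IFITM1 had 31.9, 26.4 and 20.4 CPM in C and 15.2, 13.9 and 23.6 CPM in D (−0.58 ± 0.23, adjusted p = 0.061), and IFITM3 had 436, 429 and 364 CPM in C and 337, 251 and 405 CPM in D (−0.31 ± 0.17, adjusted p = 0.16). In each of these genes D replicate 3 was the highest D library and D replicate 2 the lowest. Without D replicate 3 both other genes passed as well, IFITM1 at −0.84 and IFITM3 at −0.46, and IFITM1 also passed without C replicate 3 (−0.73). The call of IFITM2 was lost without C replicate 1 (−0.61) or D replicate 1 (−0.60). These genes are close copies of one another, so how the reads were divided among them is uncertain.

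OAS enzymes make short oligoadenylates on double-stranded RNA, which activate the nuclease RNase L, and OASL is a relative without that activity. OASL rose from 14.2, 15.7 and 15 CPM in C to 27, 24.9 and 25.4 CPM in D (0.78 ± 0.11, adjusted p = 0.00046), and OAS2 from 1.79, 1.99 and 1.9 CPM in C to 3.61, 5.26 and 2.84 CPM in D (1.05 ± 0.25, adjusted p = 0.0069). OAS1 had 11.3, 11.4 and 11.9 CPM in C and 13.4, 13.2 and 14.3 CPM in D and did not pass (0.24 ± 0.11, adjusted p = 0.096). OAS1 and OASL were even across the D libraries, while OAS2 was highest in D replicate 2. OAS3, the longest enzyme of the family, had 39.6, 38.7 and 49.3 CPM in C and 28.9, 42.2 and 19 CPM in D, a wide spread within D and no call (−0.50 ± 0.25, adjusted p = 0.13). With D replicate 2 set aside, OAS3 fell (−0.79, adjusted p = 0.0068).

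Of the GTPases, GBP1, GBP3 and MX2 rose and GBP2 fell. Guanylate-binding proteins coat the vacuoles and membranes of intracellular pathogens and are classic targets of IRF1 and interferon gamma. GBP1 stood at 38.4, 40.1 and 49.4 CPM in C and 104, 106 and 109.6 CPM in D (1.32 ± 0.12, adjusted p = 6.5e-05), and GBP3 at 12.1, 13.2 and 15.1 CPM in C and 23, 28.8 and 28 CPM in D (0.98 ± 0.14, adjusted p = 0.00051). GBP2 had 37.3, 34.6 and 28.1 CPM in C and 18.2, 14.9 and 14.6 CPM in D (−1.07 ± 0.15, adjusted p = 0.00049). The D libraries agreed closely in GBP1 and GBP2, and in all of these genes the groups were separate. MX2, a dynamin-like protein that restricts HIV, was near the floor in C, with 1, 4 and 8 counts in C and 19, 22 and 17 in D, and its fitted log2 fold change of 2.31 ± 0.45 (adjusted p = 0.0027) rests on those few counts. Only the D libraries of MX2 reached the counts needed for a test, so only a rise could be called. MX1, the related influenza restriction factor, had 1.43, 1.34 and 1.85 CPM in C and 2.43, 2.13 and 2.1 CPM in D and did not pass (0.52 ± 0.20, adjusted p = 0.057), though it did without C replicate 3 (0.67).

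RSAD2 encodes viperin, which makes a chain-terminating nucleotide, and lies beside CMPK2, a nucleotide kinase gene. RSAD2 had 1.28, 1.8 and 2.08 CPM in C and 7.56, 8.12 and 6.64 CPM in D (2.10 ± 0.20, adjusted p = 7.2e-05), and CMPK2 had 0.615, 0.832 and 0.90 CPM in C and 1.41, 1.87 and 1.36 CPM in D (0.98 ± 0.26, adjusted p = 0.011). Every D library of both genes was above every C library, and in both D replicate 2 was the highest. In counts these are modest levels, with RSAD2 at 25, 39 and 44 counts in C and 134, 156 and 117 in D and CMPK2 at 12, 18 and 19 counts in C and 25, 36 and 24 in D.

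Among the other antiviral effectors, PLSCR1, a phospholipid scramblase, stood at 34.3, 33.2 and 35.3 CPM in C and 45.5, 48.8 and 53.2 CPM in D (0.52 ± 0.11, adjusted p = 0.0036). SAMD9L, a restriction factor of poxviruses, stood at 5.38, 6.15 and 8.81 CPM in C and 11.1, 21.1 and 11.2 CPM in D (1.09 ± 0.29, adjusted p = 0.012). D replicate 2 of SAMD9L was well above the other D libraries, and the gene missed the threshold with C replicate 1 set aside (0.95). Its neighbour SAMD9 had 3.54, 3.1 and 5.17 CPM in C and 4.06, 9.47 and 3.52 CPM in D, where D replicate 2 alone was above C (0.54 ± 0.38, adjusted p = 0.26). With D replicate 2 set aside SAMD9 was at −0.02 on the log2 scale, and with D replicate 3 set aside it was at 0.80 and passed (adjusted p = 0.025). The value for SAMD9 therefore depended on which D library was kept. ISG20, an RNA exonuclease, had 7.23, 9.34 and 6.97 CPM in C and 10.3, 8.48 and 13.2 CPM in D (0.44 ± 0.19, adjusted p = 0.084) and passed without D replicate 2 (0.62). BST2, or tetherin, which holds budding virions at the cell surface, had 43.7, 44.1 and 35.3 CPM in C and 42.6, 31.8 and 49.3 CPM in D, with overlapping groups and a log2 fold change of 0.01 ± 0.17, whose sign differed between scalings.

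ISG15, a ubiquitin-like modifier, and both HERC genes rose. ISG15 stood at 15.1, 14.7 and 11.5 CPM in C and 28.1, 19.7 and 31.2 CPM in D (0.93 ± 0.19, adjusted p = 0.0034). HERC5, the main ligase that attaches ISG15 to proteins, stood at 2.2, 2.4 and 1.61 CPM in C and 3.33, 4.74 and 5.79 CPM in D (1.15 ± 0.25, adjusted p = 0.0044), and its relative HERC6 at 6.05, 5.59 and 6.44 CPM in C and 9.37, 9.53 and 8.97 CPM in D (0.62 ± 0.13, adjusted p = 0.0031). The groups were separate in all of these genes. USP18, the protease that removes ISG15 and also dampens receptor signalling, fell from 4.97, 4.71 and 4.79 CPM in C to 3.67, 3.38 and 2.78 CPM in D (−0.56 ± 0.16, adjusted p = 0.017), a call that ended with C replicate 1 set aside (−0.54).

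PARP9 and DTX3L form an enzyme complex and their genes lie head to head, so without a stated strand setting reads from any shared stretch cannot be told apart. PARP14 is an ADP-ribosyltransferase. PARP14 rose from 37.2, 35.3 and 38.6 CPM in C to 65.1, 91.4 and 49.5 CPM in D (0.89 ± 0.20, adjusted p = 0.0057), and DTX3L from 29.4, 29.1 and 28.1 CPM in C to 47.8, 57.8 and 32.6 CPM in D (0.68 ± 0.19, adjusted p = 0.016). PARP9 had 12.4, 11.2 and 12.2 CPM in C and 15.5, 17 and 11.6 CPM in D (0.30 ± 0.16, adjusted p = 0.13). All these genes were highest in D replicate 2 and lowest of the D libraries in D replicate 3. DTX3L lost its call without C replicate 1 (0.68), C replicate 3 (0.65) or D replicate 1 (0.65), and PARP9 passed without D replicate 3 (0.46).

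Both nucleic acid sensors among the members rose. IFI16, which binds DNA, stood at 71.4, 74.7 and 73 CPM in C and 139.8, 161 and 155 CPM in D (1.06 ± 0.10, adjusted p = 7.1e-05), the smallest standard error of the tested members. IFIH1, the RNA sensor MDA5, stood at 5.23, 3.88 and 5.26 CPM in C and 7.0, 7.91 and 6.42 CPM in D (0.57 ± 0.17, adjusted p = 0.019). The call of IFIH1 was lost without C replicate 2 (0.44) or D replicate 1 (0.58), whereas IFI16 kept its call with any 1 library set aside.

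The remaining members include the largest rises. XAF1, which binds the apoptosis inhibitor XIAP, had 6, 11 and 11 counts in C and 41, 45 and 59 in D and a log2 fold change of 2.55 ± 0.29 (adjusted p = 0.00016). Like MX2, XAF1 had enough counts to be tested only through its D libraries. IFI44 stood at 3.13, 3.93 and 3.22 CPM in C and 10.6, 13.4 and 13.6 CPM in D (1.86 ± 0.16, adjusted p = 5.3e-05), and its paralog IFI44L at 2.56, 2.36 and 2.75 CPM in C and 4.51, 4.48 and 3.69 CPM in D (0.73 ± 0.17, adjusted p = 0.006). All the D libraries of these genes were above C. IFI35, a partner of NMI, rose from 20.2, 21.4 and 20.2 CPM in C to 48.9, 43 and 63.6 CPM in D (1.33 ± 0.16, adjusted p = 0.00019). IFI6, a small membrane protein gene, stood at 12.5, 13 and 10.5 CPM in C and 16.5, 13.3 and 23.2 CPM in D (0.56 ± 0.20, adjusted p = 0.043), and its call was the weakest of the list. It ended without C replicate 1 (0.58), C replicate 2 (0.62), C replicate 3 (0.47), D replicate 1 (0.61) or D replicate 3 (0.33). It also ended with limma-voom (0.53), upper quartile factors (0.55), library size only (0.40), a replicate block (0.53), the stricter threshold and all the FPKM tests, 13 of 19 alternatives in all. LGALS3BP, a secreted glycoprotein gene, had 948, 975 and 976 CPM in C and 1187, 1083 and 1203 CPM in D and did not pass (0.26 ± 0.10, adjusted p = 0.053), but passed without D replicate 2 (0.34) or D replicate 3 (0.25). IFI27, usually among the genes that interferon raises most, had 11, 16 and 11 counts in C and 6, 8 and 13 in D and overlapping groups (−0.30 ± 0.37, adjusted p = 0.52). EPSTI1 had 0, 1 and 0 counts in C and 2, 2 and 0 in D and was not tested.

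**Figure D3:**
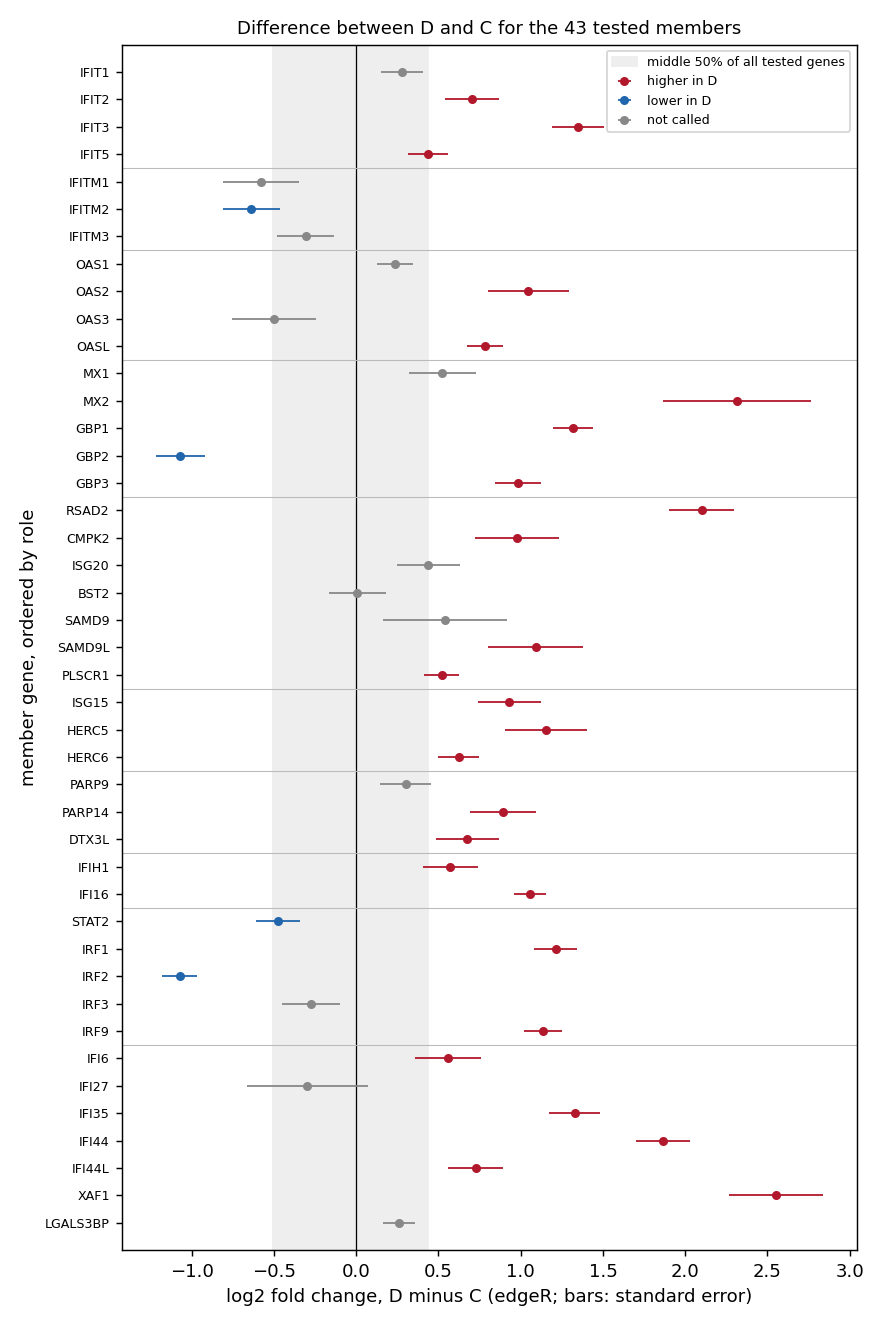
Points are edgeR log2 fold changes of D minus C for each tested member, bars are standard errors, and the grey band holds the middle 50% of all tested genes, from −0.50 to 0.44. Of the 43 members, 28 lie to the right of the band and 4 to the left of it.

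Levels between genes are compared in FPKM, which divides by gene length. In C the mean FPKM ran from 706 for IFITM3, 462 for LGALS3BP and 184 for IFITM2 down to 0.00824 for IRF7 and 0.00220 for EPSTI1. Of the 6 members with the highest FPKM in C (IFITM3, LGALS3BP, IFITM2, BST2, IFITM1 and IRF3), 0 rose and 1, IFITM2, fell in the edgeR test. Each of those 6 passed in at least 1 alternative except BST2, and LGALS3BP was the only one to pass upward. Of the next 9 members, from ISG15 at 22.8 to OASL at 7.06 FPKM, 7 rose and 2 fell. Of the next 15, 9 rose and 1 fell, and of the lowest 15, 2 of them untested, 10 rose and 0 fell. Over all tested genes, at any level, 26.8% were higher and 27.7% lower, and no share for genes of like level is given here. These groups of ranks are of unequal size, and the difference between them was not tested. The ranks use the C level, which also enters D minus C, so low ranks favour rises from the outset. In the lowest group, XAF1 and MX2 were tested only through their D libraries, and members low in both groups were not tested.

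A sum over the list rests mainly on a few genes. LGALS3BP, IFITM3 and IFITM2 held 67.8% to 68.5% of the summed CPM of the 45 members in C and 57.3% to 63.1% in D. The sum over all 45 was 2273 ± 49.5 CPM in C and 2632 ± 147 in D. The other 42 members together had 722.6, 728.3 and 713.8 CPM in C and 1007, 1059 and 1024 CPM in D, a ratio of 1.43, while the ratio for the 3 abundant genes was 1.03.

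**Figure D4:**
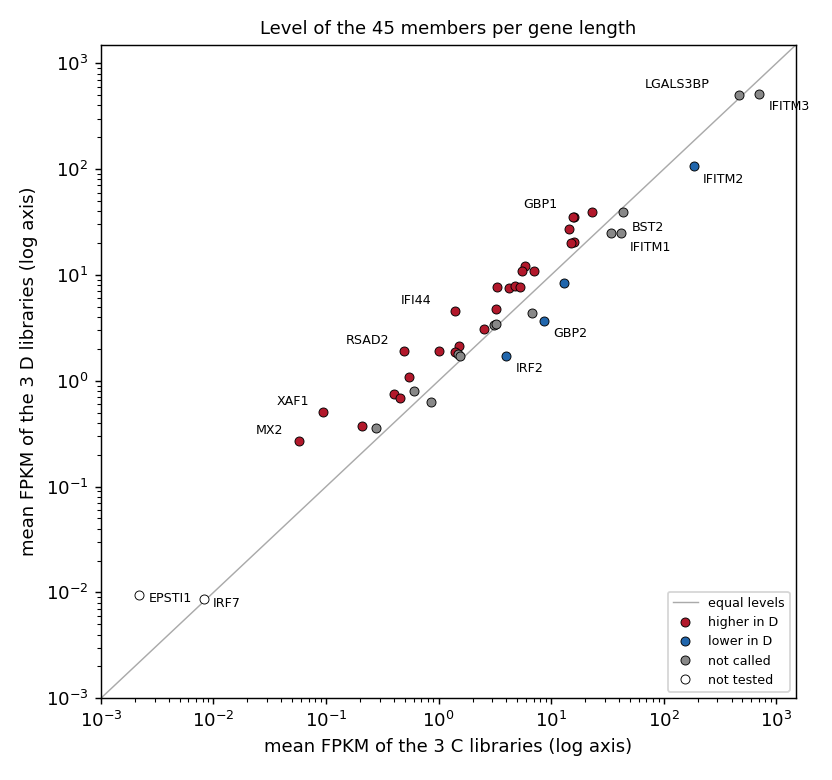
Mean FPKM of the D libraries is plotted against that of the C libraries on log axes for all 45 members, coloured by the edgeR call, with a line at equal levels. The members that rose lie at 22.8 FPKM or less in C, and the most abundant members, led by IFITM3 at 706, are on or below the line or close to it.

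Members of different length differed in how well the D libraries agreed. The gene lengths implied by the counts and FPKM run from 611 bp for IFITM3 to 8770 bp for IRF2. Over the 43 tested members the log2 difference of D replicate 2 minus D replicate 3 went along with log2 length (Pearson r = 0.743, Spearman rho = 0.704). Over all 12682 tested genes, in the same libraries, these were 0.651 and 0.683. All 8 members of up to 1500 bp, among them the IFITM genes, ISG15, BST2 and IFI6, were lower in D replicate 2 than in D replicate 3, with a median difference of −0.69. Of the 6 members over 6000 bp, 5 were higher in D replicate 2, with a median of 0.90, led by SAMD9 and OAS3.

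Between the groups, the 8 short members had a median log2 fold change of −0.145, with 3 rises and 1 fall, where all tested genes of that length had a median of 0.25, 34.8% higher and 12.8% lower. The 8 members above 1500 and up to 3000 bp had 6 rises and 0 falls and a median of 0.96, where all such genes had 0.10, 33.2% higher and 24.1% lower. The 21 members above 3000 and up to 6000 bp had 15 rises and 2 falls and a median of 0.705, where all such genes had −0.05, 27.9% higher and 30.8% lower. The 6 members over 6000 bp had 2 rises and 1 fall and a median of 0.42, where all such genes had −0.20, 17.0% higher and 31.3% lower. With the trend of each library along gene length removed, 31 members rose and 7 fell, and the median was 0.67. Calls over all genes went up as well, to 4169 higher and 3854 lower from 3393 and 3509. Under that setting IFITM1, IFITM3 and IRF3 passed as lower (−0.88, −0.63 and −0.40), and IFIT1, OAS1, MX1, PARP9 and LGALS3BP as higher.

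**Figure D5:**
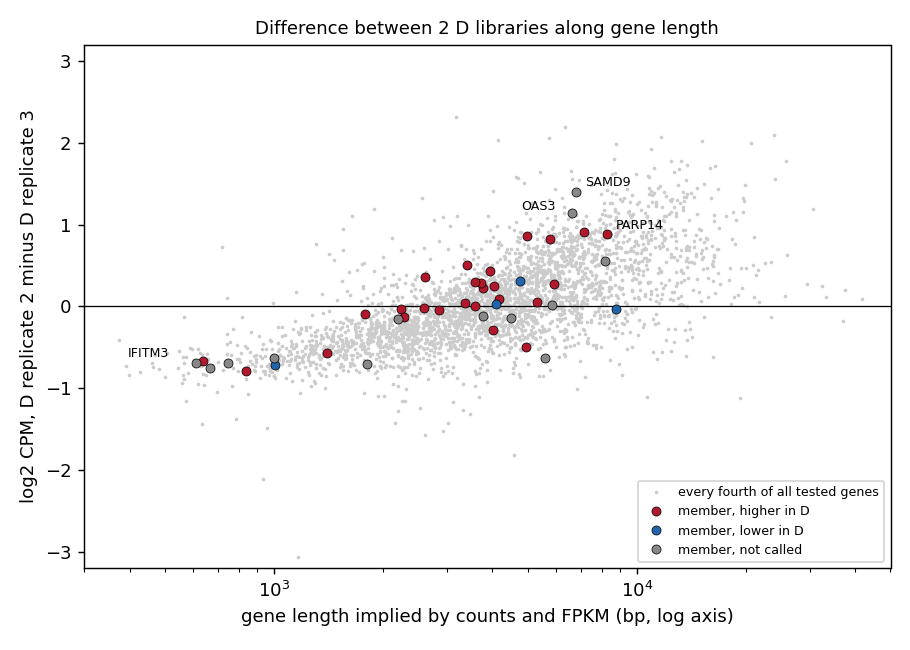
The difference in log2 CPM between D replicates 2 and 3 is plotted against gene length (log axis) for the 43 tested members, coloured by call, over a subset of all tested genes in grey. Short members lie below 0 and most long ones above it, as do the grey points.

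A wider list of 49 other interferon-stimulated genes was examined in the same way. Of 43 tested, 13 rose and 10 fell, or 30.2% and 23.3%, near the 26.8% and 27.7% of all tested genes, and the median log2 fold change was 0.09. Those that rose with the lowest p were the antibody receptor gene TRIM21, from 19.1 ± 1.91 to 42.9 ± 6.02 CPM (SD, n = 3; 1.17 ± 0.14, adjusted p = 0.00021), the partner of IFI35, NMI (1.21), SLFN5 (1.63), APOL2 (0.72), the antiviral zinc finger gene ZC3HAV1 (0.72) and APOL6 (0.88). Those that fell with the lowest p were SLFN11, a restriction factor that also sensitizes cells to DNA damage, from 46.8 ± 0.869 to 9.36 ± 2.17 CPM (−2.32 ± 0.17, adjusted p = 2.2e-05), the lysosomal reductase gene IFI30 (−1.10), TRIM14 (−0.79), the helicase gene MOV10 (−0.50), SHFL (−0.58) and HELZ2 (−0.65). SLFN5 and SLFN11, members of one family, moved in opposite directions with separate groups. The chemokine gene CXCL10, a sensitive marker of the response, had 4, 2 and 2 counts in C and 10, 10 and 17 in D and was too low to be tested. Its relative CXCL9, also untested, had 0, 1 and 0 counts in C and 0, 0 and 0 in D. CXCL11 had 3, 9 and 2 counts in C and 10, 16 and 15 in D and rose (1.71 ± 0.48, adjusted p = 0.015). Only its D libraries reached the counts needed for a test, so only a rise could be called.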

How the data were processed

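Gene counts and FPKM of 6 libraries were used. Per the labels' protocols, RNA was column-purified and libraries were made with a SMARTER mRNA kit; the submitters' processing notes name GRCm38 and mm10 and the labels the mouse, while gene symbols are written the human way (0 of 45 members matched a mouse symbol exactly), so no coordinates or sequences are given. For the aligner, the counter and the strand setting, nothing is stated in the sources used here. The authors deposited counts as whole numbers without normalization. The deposited FPKM equalled count over library total and a fixed gene length for 17144 of 17144 genes (relative tolerance 0.001).

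Counts were fitted in R 4.3.3 with edgeR 4.0.16 (filterByExpr, TMM, quasi-likelihood F test, 2-sided, group as the only term, called at adjusted p under 0.05 over all 12682 tested genes, which hold 99.952% of counts). The standard error is the log2 fold change divided by the square root of F. CPM are TMM-normalized. Libraries within a group differed by more than sampling noise (chi-square per degree of freedom 5.34 to 74.45), and edgeR's biological coefficient of variation came to 0.0752 for C and 0.189 for D. Floors cover counting error only. The scripts were tested on simulated data. Members and pathway lists were chosen with earlier results of these data known, and 1 gene of the pathway lists is not reported here. All members could be named. Of the wider list, up to 6 genes per direction were named by lowest p, and CXCL9, CXCL10 and CXCL11 were named outside that rule. Genes averaging 3 counts or fewer in C got no fold. Alternatives were DESeq2 1.42.0, limma-voom (limma 3.58.1), RLE, upper quartile and library size scaling, other filters on low counts, adjusted p under 0.01, a replicate block, length trends removed (lowess, span 0.4), limma-trend on log2 FPKM with a pseudocount of 1 or 0.1, and each library left out.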

Additional observations from a re-analysis of the deposited data

How the results depend on the processing

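Of the 30 members called, 20 kept their call in every alternative run in which they were tested, and of the 13 not called, 2, BST2 and IFI27, were called in none. IFIT5 and IFIH1 lost their calls in 8 of 19 alternatives each, among them library size only, the replicate block and the FPKM tests, DTX3L in 8, among them library size only and the FPKM tests, and IFI6 in 13. Left-out libraries gave 22 to 29 members higher and 2 to 7 lower and a member median of 0.62 to 0.80. Among the interferon pathway and wider list genes they gave 14 to 28 higher (24 with all libraries, with 18 lower). Over all genes these fits called 2627 to 3888 higher and 2780 to 3879 lower. The shares called in each list are given above beside those of all tested genes. Tested on log2(FPKM + 1) or log2(FPKM + 0.1) with a filter, 16 members rose and 7 fell of 34 tested. Over all genes 2213 and 2209 were higher and 3908 and 3877 lower, and 13 pathway genes were higher. The member medians were 0.32 and 0.39, and those of all genes −0.14 and −0.17. A pseudocount compresses low values and a filter drops low genes, but their part in these medians was not tested. Without that filter 19 members rose and 5 fell, and the member median was 0.26. With library size only, the median of all genes was −0.17, that of the members 0.47, 15 pathway genes rose, and the members split 22 to 6 (2586 and 4449 of all genes). At adjusted p under 0.01, 20 members rose and 2 fell, and 13 pathway genes rose and 10 fell. The share of all tested genes called at that threshold is not given here, so these counts have no background. Removing length trends gave 7 members lower.

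The log2 fold change of BST2 was 0.01 and changed sign with limma-voom (−0.011), a replicate block (−0.0089), library size only (−0.15), no filter (−0.0066), upper quartile scaling (−0.0059), length trends removed (−0.22) and the FPKM tests (−0.16), and its range over left-out libraries was −0.13 to 0.20. JAK1 was 0.031 with length trends removed. Over left-out libraries, SAMD9 ran from −0.019 to 0.80, JAK1 from −0.17 to 0.066, SOCS1 from −0.45 to 0.014 and PTPN11 from −0.37 to 0.0061, each crossing 0. The cause of these shifts was not tested.

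Replicate numbers did not pair the libraries: deviations of same-numbered C and D libraries correlated at 0.0084, −0.397 and −0.365, and no library correlated best with its own number. With the replicate number as a block, 23 members rose and 4 fell (2694 and 2977 of all genes). Depth limits the interferon genes, IRF7, EPSTI1, MX2 and IFI27, where single counts move the value.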
